A study of Mus musculus with 6 samples.

Results

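The HOX genes are the clustered homeobox genes of the Hoxa, Hoxb, Hoxc and Hoxd loci, and here they are every gene whose name in the array's own annotation was Hox, a cluster letter and a number, on probes that were not controls. The rule used no measured value. It found all 39 names of the 4 clusters, on 43 of the 55681 probes of the array, which together carried 36499 gene names. All 43 HOX probes had an accession in the RefSeq gene table, and none of their names was out of date.

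HOX genes encode transcription factors that give cells a position along the body and limb axes. Within a cluster the genes lie in the order in which they are used, from low-numbered genes at the anterior end to high-numbered genes at the posterior and distal end, and genes of the same number in different clusters are paralogues. Cultured mesenchymal cells often keep the HOX pattern of the place they were taken from.

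RNA came from primary myoblasts, the dividing precursors of muscle fibres, of male C57BL/6 mice aged 3 months. The cells were sorted by flow cytometry from skeletal muscle, which muscle is not stated, and cultured in serum-rich medium. The treated group received TGFb, a secreted growth factor of fibrosis, for 4 days and the other group received none. Each group held 3 one-colour arrays that the labels call biological replicates, and nothing says which animals they came from, so p-values measure only the spread between these samples, which may be technical.

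Between 50.6% and 55.8% of probes were well above background per array, and the 75th percentile of intensity lay between 876 and 1569. At most 77 of 59305 spots were saturated on an array, and no HOX probe was among them. The arrays were scanned on 2 days, with TGFb replicate 1 and untreated replicates 1 and 2 on day 1 and the other arrays on day 2. The first principal component (72.4% of the variance) followed the scan day. Untreated replicates 1 and 2, whose scanner files carry the same number in their names, differed by a median of 0.11 log2 units over probes and 0.107 over HOX probes. For TGFb replicates 2 and 3, which also shared a day, these medians were 0.339 and 0.511. Spots of the same probe on one array had a median SD of 0.0569 to 0.0736, which leaves out labelling and hybridization. Whether the pair of untreated arrays are separate samples was not tested, and results are also given with both averaged into 1 sample. Of 10 myoblast markers, 8 were well above background on all 6 arrays, Myf5 was on 1 array and Msc on none. Their summed level, in units of the array's 75th percentile, was 523 to 866 after TGFb and 679 to 1010 without. Myog (7.211 to 7.873 as log2 level) and Chrna1 (7.645 to 8.479) carried most of it, and Pax7 was at 2.061 to 2.506. Fibroblast markers, 6 of 10 on all arrays, summed to 25.0 to 67.0 and 15.1 to 64.4, most of it Gsn (3.67 to 5.97 as log2 level), with Dpt and Lum not well above background on any array. Immune markers summed to 16.3 to 118 and 16.1 to 66.7, with Itgam, which carried most of the sum (log2 level 3.95 to 6.87), and Csf1r on all arrays, Ptprc on 1 array and Cd68 and Cd52 on none. Endothelial markers summed to 0.417 to 2.93 and 0.317 to 3.16, with Pecam1 and Kdr on all arrays and Tek, Tie1 and Emcn on none. Schwann cell markers summed to 0.635 to 1.45 and 1.12 to 1.87. In limma with group alone none of these markers passed an adjusted p of 0.05. Pericyte markers are given with the retinoic acid genes below, and of those Abcc9 passed with group alone (limma adjusted p = 0.0146). With the day of scanning also fitted, 4 markers of the other lists passed and were lower after TGFb, where 5.55% of all genes were. By list, 1 of 8 tested myoblast, 2 of 8 fibroblast and 1 of 3 Schwann cell markers passed. None of 3 endothelial or 2 immune markers did. The myoblast marker Des differed by -1.28 ± 0.16 log2 units (SE, adjusted p = 0.01). The fibroblast markers Thy1 and Dcn differed by -1.55 ± 0.15 (adjusted p = 0.00492) and -2.57 ± 0.37 (adjusted p = 0.0162). On TGFb array 1 Dcn (-6.03) was not well above background, so its size is uncertain. The Schwann cell marker Ngfr differed by -0.72 ± 0.16 (adjusted p = 0.0499). These 4 are not given with the untreated pair averaged. In bulk RNA, fewer cells of a type and less RNA per cell cannot be told apart.

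Paralogues resemble each other, so the HOX probe sequences were compared with each other, which was done after the signals were known. No transcript was searched, so whether a probe binds the RNA of another HOX gene was not tested. Over 899 pairs of probes of different HOX genes, the longest stretch shared on the same strand with at most 1 mismatch was 15 of 60 bases, found in 3 pairs. Of these, the pair chosen for display is Hoxc11 at chr15:102787022-102787081 and its neighbour Hoxc12 at chr15:102768889-102768948 (mm9). It was chosen after its values were seen, because these neighbours differed in detection. Both probes cover homeobox sequence, where HOX genes are most alike, and they are shown 5′ to 3′ with the shared stretch in capitals.
Hoxc11: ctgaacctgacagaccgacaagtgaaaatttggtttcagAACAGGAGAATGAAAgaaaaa
Hoxc12: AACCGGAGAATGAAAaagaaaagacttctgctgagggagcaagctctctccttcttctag
The stretch, AACNGGAGAATGAAA with N for the mismatch, was searched on both strands and stood in 3 of all 55681 probes (0.00539%). Hoxc11 was well above background on all 6 arrays and Hoxc12 on none. Only 1 HOX probe, of Hoxb3 at chr11:96207114-96207173, had an accession list that names another HOX gene, Hoxd3. Hoxd3's own probe was on no array, and the other Hoxb3 probe, at chr11:96209002-96209061, was on all 6. That second Hoxb3 probe was near background on TGFb arrays 2 and 3 and untreated array 1. Its intensities there (49.1, 40.7 and 44) lay under the 99th percentile of negative control spots (72.7, 74.4 and 51.3).

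The HOX code detected in these myoblasts was a run of Hoxa genes from Hoxa2 to Hoxa13, most of Hoxc, the middle of Hoxb and no Hoxd gene. A gene counts as detected where a probe of it was well above background, the scanner software's flag, on all arrays of a group. On all 6 arrays 23 of the 39 genes were detected, 4 were on some arrays and 12 on none. Each of those 12 had only 1 probe. Of all 36499 gene names, 50.3% were detected on all 6 arrays and 30.8% on none. In the untreated group 25 HOX genes were detected on all 3 arrays, and in the TGFb group 23. No HOX gene was fully detected in a group and wholly absent from the other.

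**Figure D1:**
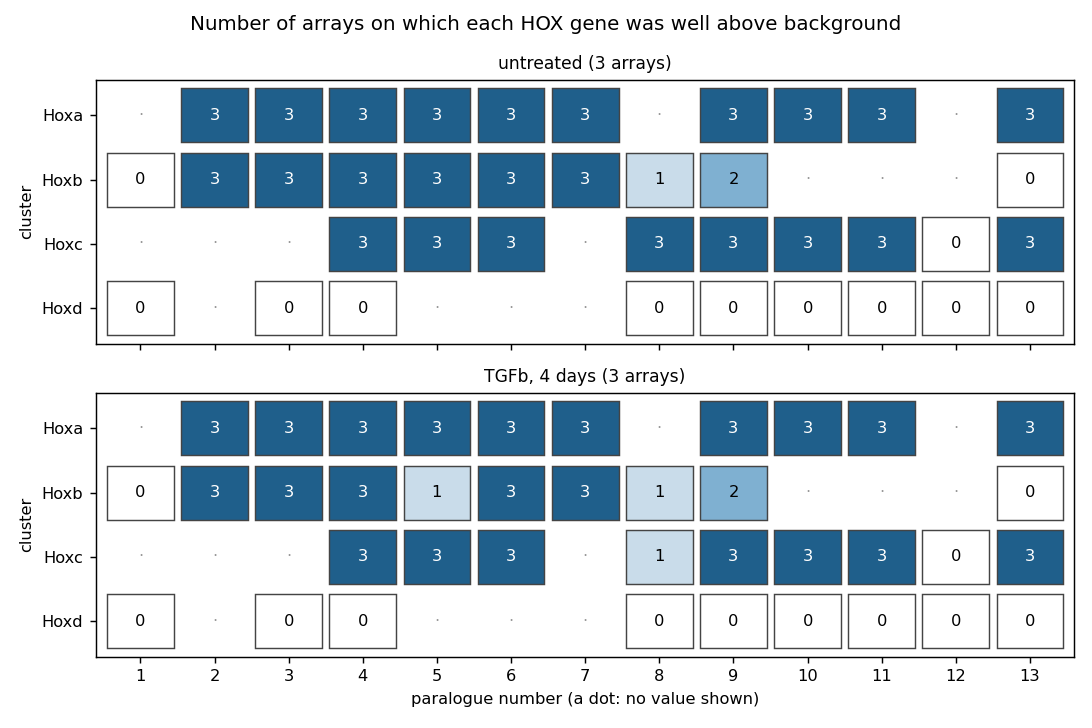
Number of arrays, of 3, on which each HOX gene was well above background, by cluster (vertical) and paralogue number (horizontal), for untreated cells (top) and after 4 days of TGFb (bottom). The grids differ in Hoxb5 and Hoxc8 only, each on 3 untreated arrays and 1 TGFb array, every Hoxd cell is 0, and a dot marks a position with no value shown.

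The 10 Hoxa genes from Hoxa2 to Hoxa13 were detected on all 6 arrays. They include Hoxa2, which patterns the second pharyngeal arch, Hoxa5, used in the lung and the cervical region, and Hoxa11 and Hoxa13, which pattern the middle and distal limb. The Hoxa13 probe at chr6:52208980-52209039 gave -1.31, -1.10 and -3.07 on TGFb arrays 1 to 3 and -1.47, -1.48 and -2.57 on untreated arrays 1 to 3, and the groups overlapped. These and all later levels are log2 intensity minus the array's 75th percentile, for which 0 is that percentile. The other Hoxa13 probe, at chr6:52208856-52208915, lay between -4.06 and -3.27 and was also well above background on all 6 arrays.

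Hoxb was detected in its middle. Hoxb2, Hoxb3, Hoxb4, Hoxb6 and Hoxb7 were well above background on all 6 arrays. Hoxb5 was on all 3 untreated arrays and on 1 TGFb array. Hoxb8 was on 1 array of each group and Hoxb9 on 2 of each, while Hoxb1, a hindbrain gene, and Hoxb13, a gene of the tail bud and prostate, were on none.

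Hoxc reached from Hoxc4 to Hoxc13. Hoxc4, Hoxc5, Hoxc6, Hoxc9, Hoxc10, Hoxc11 and Hoxc13 were on all 6 arrays, and Hoxc10 and Hoxc11 are genes of the lumbosacral level and hindlimb. Hoxc8, a gene of the brachial and thoracic level, was on all 3 untreated arrays and 1 TGFb array. Hoxc12, which lies between the detected Hoxc11 and Hoxc13, was well above background on none. The software's weaker flag, for a signal significantly above background, was set for Hoxc12 on all 3 arrays of each group. Its intensities were low, between 7.55 and 20.8, so its absence is not shown. By number, 5 of 8 genes of paralogue groups 1 to 3, 10 of 15 of groups 4 to 8 and 8 of 16 of groups 9 to 13 were on all 6 arrays.

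None of the 9 Hoxd genes was well above background on any array. The software's weaker flag, for a signal significantly above background, was set on some arrays for Hoxd4, Hoxd8, Hoxd10, Hoxd11 and Hoxd13. For Hoxd13 these were 2 TGFb arrays and 1 untreated array. The processed intensities of the 9 genes lay between 4.04 and 25.3. The levels of Hoxd13, a gene of the digits, were -7.70, -5.81 and -6.66 after TGFb and -7.50, -7.94 and -6.72 without. For all 9, the values bound the signal and give no order between the groups.

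Genes around the Hoxd cluster were detected. Mtx2, Lnpk, Hnrnpa3 and Atf2, which lie near it, were on all 6 arrays, and Evx2, the homeobox gene at its posterior end, was on none. Within the interval spanned by the Hoxd probes (mm9 chr2:74509248-74603059), 6 other probes were placed. Of these 5 were on no array, among them the probe of the noncoding Hoxd3os1, and 1, named for the transcript ENSMUST00000100000, was on all 6.

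Other probes inside the remaining clusters were detected in part. In the Hoxc interval (chr15:102759058-102867272) 6 of 6 other probes were on all 6 arrays. These were 5 probes the array names HOTAIR, the noncoding RNA transcribed between Hoxc11 and Hoxc12, and Gm4200. In the Hoxa interval 4 of 6 were on all arrays, among them the noncoding Hoxa11os. In the Hoxb interval (chr11:96057854-96228510) 6 of 22 were on all arrays and 10 on none.

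The upstream sequence of a detected and an undetected paralogue shows their base composition. The 250 bases before the start of Hoxa13 (GRCm38.p6, chr6:52260881-52261130, minus strand) and of Hoxd13 (chr2:74667975-74668224, plus strand), from RefSeq, are printed 5′ to 3′ with each CpG dinucleotide in capitals.
Hoxa13: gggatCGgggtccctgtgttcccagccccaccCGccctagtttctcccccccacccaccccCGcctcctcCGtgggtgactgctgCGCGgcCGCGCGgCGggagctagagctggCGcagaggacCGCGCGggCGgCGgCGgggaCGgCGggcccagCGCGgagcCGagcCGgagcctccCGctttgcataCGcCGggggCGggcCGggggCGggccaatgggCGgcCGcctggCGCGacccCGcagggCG
Hoxd13: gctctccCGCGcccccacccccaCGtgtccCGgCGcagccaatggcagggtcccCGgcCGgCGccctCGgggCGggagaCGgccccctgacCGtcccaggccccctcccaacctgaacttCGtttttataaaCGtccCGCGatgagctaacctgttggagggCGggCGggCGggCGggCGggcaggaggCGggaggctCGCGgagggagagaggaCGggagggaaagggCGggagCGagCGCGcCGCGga
The Hoxa13 window holds 35 CpG and the Hoxd13 window 31. RefSeq windows were at hand for 22 of the 39 genes. Over 12 windows of 11 genes detected on all arrays the median was 13.5 (range 3 to 35), and over 11 windows of 10 genes detected on none it was 12 (2 to 31). Over 32841 windows of all genes the median was 6. Methylation was not measured.

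Whether TGFb changed the code was asked on the 26 HOX genes detected by a probe on 3 or more of the 6 arrays, in either group. In limma, with Benjamini-Hochberg adjustment over 21864 genes, no HOX gene passed an adjusted p of 0.05, where 1.4% of all genes did (0.7% higher and 0.704% lower after TGFb). A further fit, called the day-adjusted fit, held group and scan day. Again no HOX gene passed, where 10.2% of all genes did (4.65% higher and 5.55% lower). At an unadjusted p of 0.05, 1 HOX gene passed with group alone (Hoxc13) and 4 in the day-adjusted fit (Hoxb4, Hoxb5, Hoxc6 and Hoxc13), where 11.6% and 27.2% of all genes did. The adjusted p of the 26 genes ran from 0.372 to 0.994 with group alone and from 0.0571 to 0.95 in the day-adjusted fit.

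The values had no common direction. Of the 26 genes, 14 had a higher mean after TGFb and 12 a lower one, and the median log2 difference was 0.02, against 0.05 over all genes. The median size of the difference was 0.398 for HOX genes and 0.451 for all genes. In the day-adjusted fit these medians were -0.15 and 0.04 for the difference and 0.306 and 0.336 for its size. Per cluster, 6 of 11 Hoxa, 4 of 7 Hoxb and 4 of 8 Hoxc genes tested had the higher mean after TGFb.

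**Figure D2:**
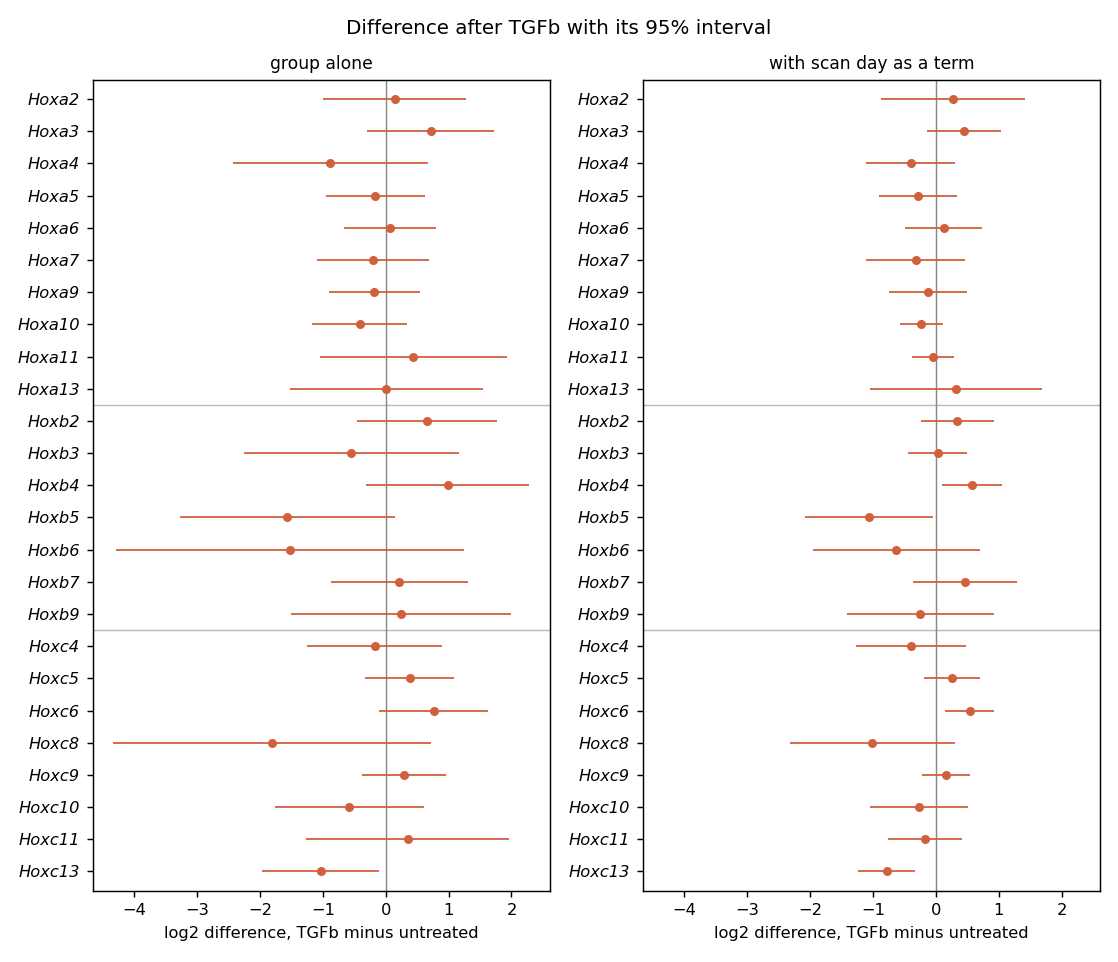
Log2 difference, TGFb minus untreated, of 25 tested HOX genes (points) with the 95% interval from limma (bars), with group alone (left) and in the day-adjusted fit (right). Most intervals span 0 in both panels and are shorter on the right, where 11 of the 25 lie within 1 log2 unit of 0, against 4 on the left.

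How large a change these arrays leave possible differs by gene. For 5 of 26 HOX genes the 95% interval lay within 1 log2 unit (2-fold) of no change, as for 16.0% of all genes. The day-adjusted interval did for 12 of 26, against 54.5% of all genes. A change of 2-fold could thus not be bounded for most of the HOX genes in either fit, and a missed threshold does not show that they were unaffected.

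By the rule for named genes, since none passed, the 3 HOX genes with the largest difference among those on all 6 arrays are given first. Hoxb6, a gene of the thoracic level, stood at -2.49, -4.99 and -3.70 on TGFb arrays 1 to 3 and at -1.25, -0.82 and -4.55 on untreated arrays 1 to 3. The groups overlapped, since untreated array 3 lay below TGFb arrays 1 and 3. On TGFb array 2 its intensity was 37.4, under the 99th percentile of negative control spots (72.7), so that value is near background. The difference was -1.52 ± 1.14 (SE, n = 3 and 3, 95% interval -4.30 to 1.25, limma adjusted p = 0.704) and -0.63 when adjusted for day.

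Hoxc13, a gene of hair follicles, nails and the tail, gave -1.51, -2.48 and -2.62 after TGFb and -1.03, -0.98 and -1.48 without. It was the only tested HOX gene whose groups did not overlap (1 of 26, 3.85%), which held for 17.9% of all genes, and TGFb array 1 lay just below untreated array 3. The difference was -1.04 ± 0.38 (95% interval -1.97 to -0.10, adjusted p = 0.372). Adjusted for day it was -0.79 ± 0.18 (adjusted p = 0.0571), and it had the same sign within day 1 (-0.51) and day 2 (-1.06). With untreated arrays 1 and 2 averaged it was -0.83 ± 0.24 (adjusted p = 0.176, day-adjusted).

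Hoxb4, a gene also known for the expansion of blood stem cells, gave 0.02, 1.31 and 0.88 after TGFb and -0.64, -0.78 and 0.68 without. TGFb array 1 lay below untreated array 3, so the groups overlapped. The difference was 0.98 ± 0.54 (95% interval -0.32 to 2.29, adjusted p = 0.581), and 0.57 ± 0.19 adjusted for day (adjusted p = 0.13). In the day-adjusted fit without TGFb replicate 3, Hoxb4 and Hoxa3 passed (adjusted p = 0.0381 and 0.0415), both with a higher level after TGFb. These were 2 of 26 HOX genes, in a fit where 3345 of all 21864 genes passed.

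**Figure D3:**
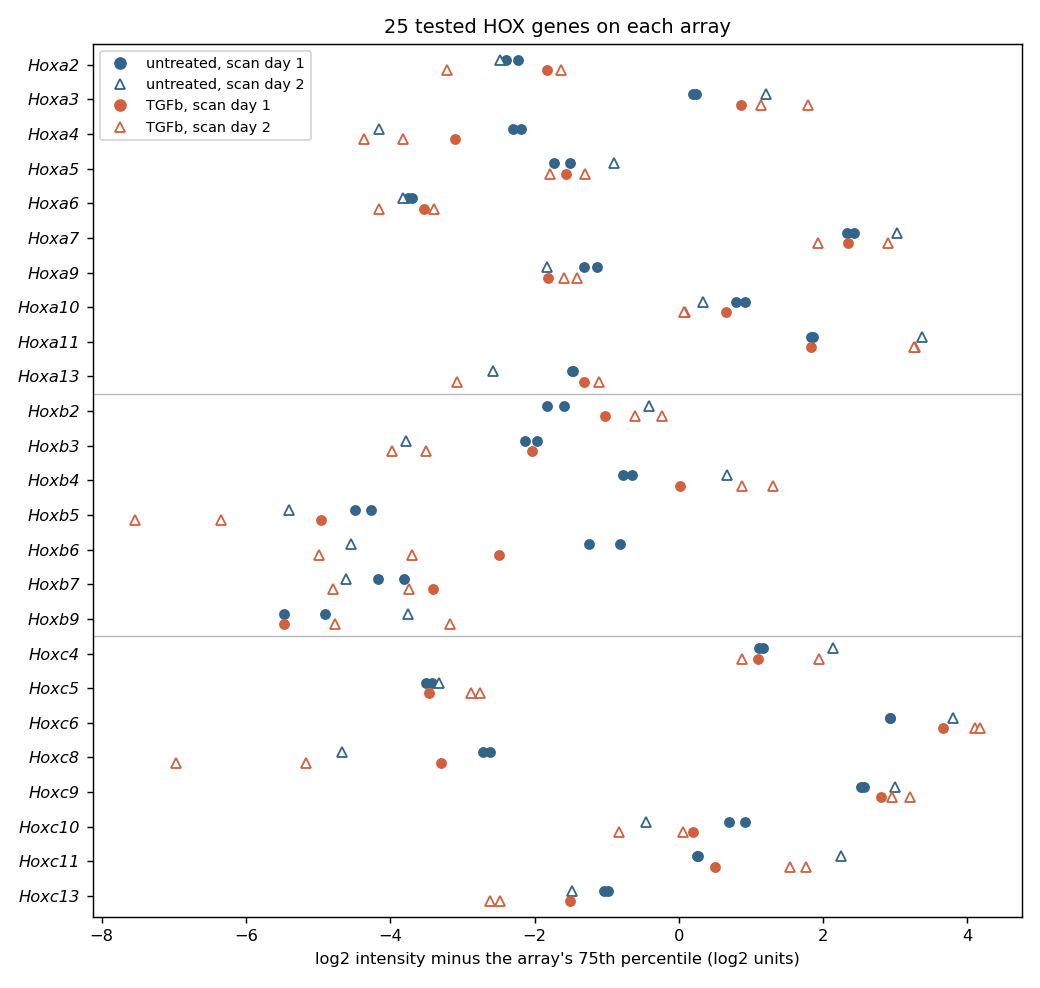
Level of 25 tested HOX genes on each array, as log2 intensity minus the array's 75th percentile. Blue marks untreated and orange TGFb arrays, filled circles scan day 1 and open triangles scan day 2, and for many genes, such as Hoxa11 (1.83 to 1.86 on day 1 and 3.27 to 3.37 on day 2), the points part by shape rather than colour.

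Other genes are named after their values were seen. Hoxc6, a gene of the thoracic level, was at 3.66, 4.10 and 4.18 after TGFb and at 2.92, 2.93 and 3.80 without, with TGFb array 1 below untreated array 3. It differed by 0.76 ± 0.35 (adjusted p = 0.501), and by 0.53 ± 0.16 adjusted for day (adjusted p = 0.101). Hoxa3, a gene of the pharyngeal organs, was at 0.86, 1.79 and 1.14 after TGFb and at 0.24, 0.20 and 1.21 without, and its difference was 0.72 ± 0.42 (adjusted p = 0.608).

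Hoxb5 and Hoxc8 make up the change in the grid, and neither passed the test. Hoxb5 gave -4.96, -7.54 and -6.34 after TGFb and -4.48, -4.26 and -5.40 without, with the first TGFb array alone well above background. Its groups overlapped, because that array lay above untreated array 3, and the difference was -1.57 ± 0.70 (adjusted p = 0.484). Hoxc8 gave -3.30, -5.17 and -6.96 after TGFb and -2.62, -2.72 and -4.67 without. Here too the detected TGFb array was the one scanned on day 1, it lay above untreated array 3, and the difference was -1.81 ± 1.04 (adjusted p = 0.601). The day-adjusted differences were -1.07 for Hoxb5 (adjusted p = 0.169) and -1.01 for Hoxc8 (adjusted p = 0.282). Values near the background are substitutes set by the scanner software, so these sizes are uncertain.

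Genes with a second probe read alike in part. The 2 Hoxa9 probes, of which the one at chr6:52174165-52174224 was not used for the gene, both overlapped between groups. That probe was at -1.26, -2.88 and -1.58 after TGFb and -1.52, -1.39 and -3.06 without, while the one used spanned only -1.82 to -1.13. With every probe tested on its own, no HOX probe of 29 passed.

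More HOX genes passed the test for scan day than for TGFb. In the day-adjusted fit, 15 of 26 HOX genes differed between the days, where 55.6% of all genes did. On day 2, 8 were higher and 7 lower, against 31.9% and 23.7% of all genes. The median size was 0.778 log2 units for HOX genes and 0.782 for all genes. Hoxa11 was higher on day 2 by 1.48 ± 0.13 (adjusted p = 0.00103), Hoxc11 by 1.57 ± 0.23 (adjusted p = 0.00374) and Hoxb4 by 1.23 ± 0.19 (adjusted p = 0.00438). Hoxb3 differed by -1.72 ± 0.19 (adjusted p = 0.00166), Hoxb6 by -2.69 ± 0.53 (adjusted p = 0.00925), Hoxc8 by -2.39 ± 0.52 (adjusted p = 0.0131) and Hoxa4 by -1.45 ± 0.28 (adjusted p = 0.00891), all lower on day 2. These genes were picked after their values were seen. Hoxc11 illustrates the pattern, with 0.50, 0.26 and 0.25 on the day 1 arrays (TGFb 1, untreated 1 and 2) and 1.76, 1.54 and 2.24 on the day 2 arrays (TGFb 2 and 3, untreated 3). Whether a scan day also stands for a culture or a labelling was not tested. In the authors' deposited table the first component separated the groups in place of the days. There the median size of the day difference over the 26 HOX genes was 0.148, against 0.904 in the values used here. Both are plain differences between day means, unlike the 0.778 from the fit. Again no HOX gene passed for TGFb in that table, where 3326 of 21864 genes did.

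**Figure D4:**
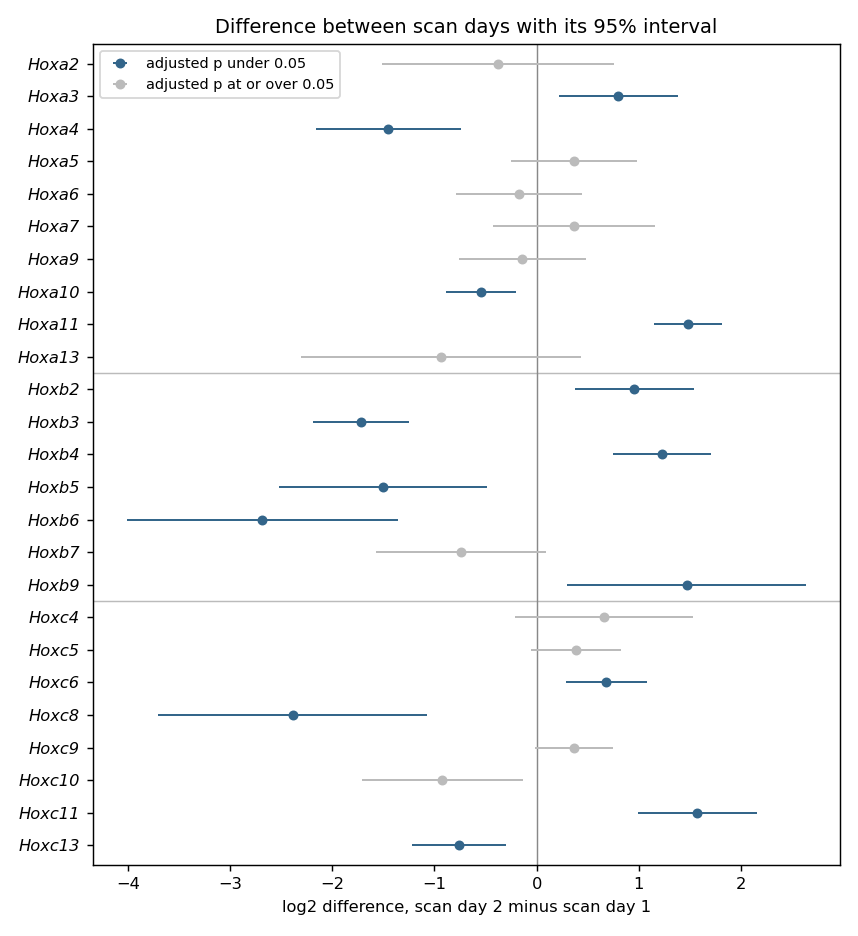
Log2 difference between scan days, day 2 minus day 1, of 25 tested HOX genes in the day-adjusted fit, with the 95% interval (bars). Blue points are the 14 genes with an adjusted p under 0.05, from Hoxb6 at -2.69 to Hoxc11 at 1.57, and grey points the others.

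Within days, where scan day does not enter, 18 of 26 HOX genes (69.2%) had a TGFb difference of the same sign on both, against 67.9% of all genes. Day 1 compares 1 TGFb array with 2 untreated and day 2 compares 2 with 1, so neither gives a test of its own. The labels state no pairing by replicate number, and same-numbered arrays did not all share a scan day. With the replicate number as a block no HOX gene passed and 2 of all genes did.

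HOX proteins bind DNA with partners of the TALE class, and Polycomb and Trithorax proteins keep HOX clusters silent or active. The TALE genes listed, not all of them HOX partners, were present, with 10 of 11 on all 6 arrays. None of the 11 passed with group alone (2 at an unadjusted p of 0.05, limma, where 11.6% of all genes did). In the day-adjusted fit 1 of 11 passed, near the 10.2% of all genes. This was Tgif1, a TALE corepressor of TGFb signalling, while no Pbx, Meis or Pknox gene passed in either fit. Tgif1 was at 5.32, 5.31 and 5.54 after TGFb and at 4.09, 4.22 and 4.46 without, with no overlap. Its day-adjusted difference was 1.07 ± 0.16 (limma adjusted p = 0.0158). Of the 11 tested Trithorax members and H3K27 demethylases, such as Wdr5 and Kdm6b, none passed in either fit (0 and 1 at an unadjusted p of 0.05, limma, against 11.6% and 27.2% of all genes). The median difference was 0.02 for the TALE list and 0.22 for the Trithorax list, and -0.31 and -0.18 adjusted for day.

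Of 21 tested Polycomb genes, whose median difference was 0.19 (0.00 adjusted for day), Phf19 alone passed and fell. As 1 of 21, this count is near the 5.55% of all genes that were lower in the day-adjusted fit (0.704% with group alone). Phf19 brings the Polycomb methyltransferase complex to its targets. It was at -5.36, -5.84 and -5.87 after TGFb, not well above background on any of these arrays, and at -3.42, -3.14 and -3.44 without, a level at least 3.77-fold lower after TGFb (limma adjusted p = 0.0219, and 0.00288 adjusted for day). This size holds for the processing used here. The log2 difference, -2.36 here, was -0.89 in the authors' deposited table (adjusted p = 0.00698) and -0.90 after normexp background correction (adjusted p = 0.152). The core genes Ezh2 and Eed differed by 0.19 ± 0.45 and 0.44 ± 0.29 (adjusted p = 0.879 and 0.652).

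Retinoic acid is the classic inducer of anterior HOX genes, and 1 of its synthesis genes passed in both fits. Aldh1a2, an enzyme that makes retinoic acid, rose from -3.47, -3.60 and -3.46 to -0.77, -0.45 and 0.04, with no overlap. The difference was 3.12 ± 0.30 (adjusted p = 0.0146, and 0.00271 adjusted for day). It was the only member of the 16 tested to pass with group alone, and the median difference of the 16 was 0.21 (0.09 adjusted for day). The day-adjusted fit added 4 genes, all higher after TGFb, where 4.65% of all genes passed in that direction. Among them, Aldh1a3, another such enzyme, differed by 1.56 ± 0.19 (adjusted p = 0.0101) and Dhrs3, which turns retinal back to retinol, by 1.68 ± 0.21 (adjusted p = 0.0103). Crabp1, a retinoic acid carrier, was not well above background on any untreated array and was at least 1.83-fold higher after TGFb (adjusted p = 0.022) in the processing used here. Its log2 difference was 0.26 in the authors' deposited table (adjusted p = 0.497) and 0.45 after normexp correction (adjusted p = 0.57), both under that bound, and it passed in 2 of 23 alternative settings. In the authors' deposited table Aldh1a3 differed by 0.82 and Aldh1a2 by 2.27. The receptors Rara, Rarb and Rarg were on all 6 arrays, with differences of 0.39, 0.26 and 0.54 and adjusted p of 0.776, 0.851 and 0.752. Pericyte markers, of which Kcnj8 was on no array, summed to 14.2 to 36.6 after TGFb and 6.32 to 12.8 without. Among them Abcc9 fell, with -2.63 ± 0.26 (adjusted p = 0.0146), and Rgs5 was higher by 1.57 ± 0.23 in the day-adjusted fit (adjusted p = 0.0166). Their part in these differences was not tested.

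**Figure D5:**
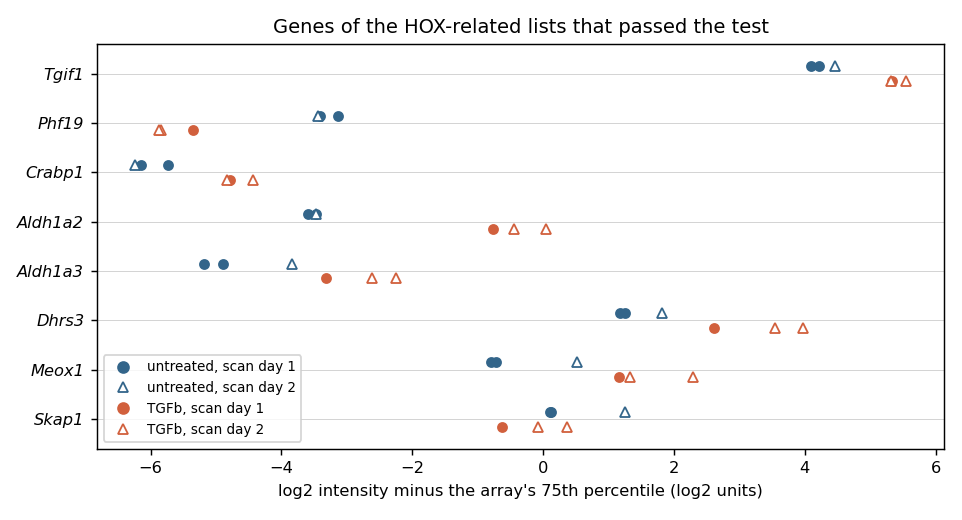
Level on each array of 8 genes of the HOX-related lists that passed in either fit, as log2 intensity minus the array's 75th percentile, with blue for untreated, orange for TGFb, circles for scan day 1 and triangles for scan day 2. The groups do not overlap in Aldh1a2 (-3.60 to -3.46 against -0.77 to 0.04) or Phf19, and they do in Skap1.

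With untreated arrays 1 and 2 averaged into 1 sample, no gene passed with group alone, Aldh1a2 and Phf19 included (adjusted p = 0.133 and 0.159). Adjusted for day, both passed (adjusted p = 0.019 and 0.0197). Tgif1, Aldh1a3, Dhrs3 and Crabp1 did not, with adjusted p between 0.051 and 0.0898. With group alone, leaving out TGFb replicate 2 or 3 or untreated replicate 1 or 2 also ended the calls of Aldh1a2 and Phf19, and leaving out TGFb replicate 1 ended that of Phf19.

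Of the 34 genes beside the clusters or linked to them, 22 were tested and none passed with group alone (2 at an unadjusted p of 0.05, limma, where 11.6% of all genes did). In the day-adjusted fit 2 of 22 passed, near the 10.2% of all genes. Meox1, a homeobox gene of the somites, was higher by 1.61 ± 0.32 (adjusted p = 0.0386) and Skap1, a signalling adaptor beside Hoxb, lower, with -0.92 ± 0.19 (adjusted p = 0.0443). Averaging the pair of untreated arrays ended both (adjusted p = 0.131 and 0.153). Hoxa11os, the noncoding RNA opposite Hoxa11, was at 2.49, 2.23 and 2.05 after TGFb and at 2.29, 2.15 and 1.73 without. The groups overlapped and the difference was 0.20 ± 0.28 (adjusted p = 0.807). The 5 HOTAIR probes differed by -0.19 to 0.31 and none passed.

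A transcript opposite Hoxa3 stood out among the probes inside the clusters, and was picked after its values were seen. The probe named ENSMUST00000155922, at chr6:52119107-52119166, shares 40 bases with the Hoxa3 probe at chr6:52119087-52119146 on the opposite strand. It was at -2.48, -3.26 and -2.80 after TGFb and at -0.49, -0.40 and -1.28 without, with no overlap between the groups. With every probe tested on its own, the difference was -2.13 ± 0.37 (limma adjusted p = 0.0736) and it passed in the day-adjusted fit, at -1.90 ± 0.20 (adjusted p = 0.00761). Hoxa3 itself was not lower after TGFb on average, with 0.72 ± 0.42. With the pair of untreated arrays averaged and adjusted for day, the transcript's adjusted p over genes was 0.0382.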

How the data were processed

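Scanner output for each array and 1 table of all arrays were deposited by the authors. Per the file headers, spot intensity was extracted with Agilent Feature Extraction 10.7.3.1, corrected for spatial background trends, with substitute values for spots near background, and probe coordinates refer to mm9. The authors' deposited table holds normalized log2 values. Its column medians were 7.11 to 7.12, and within a scan day each column matched its own array best (r = 0.752 to 0.854, the next 0.10 at most). Its normalization and any centring are not given in the sources used here, and it served as an alternative.

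Control and outlier spots (176 to 365 per array) were left out, each array's 75th percentile of log2 intensity was subtracted, spots of a probe were averaged, and a gene was represented by its brightest probe among those well above background on 3 or more arrays. Genes without a value on all 6 arrays were not tested, which left 21864. The test was limma (version 3.58.1, R 4.3.3), TGFb minus untreated, group as the only term, and again with scan day as a term (the day-adjusted fit). P-values were adjusted by Benjamini-Hochberg over all genes tested, with 0.05 as the threshold, and every ± beside a difference is its SE. Intervals are 95% limma intervals and do not account for the number of genes. The number of arrays limits the precision. A bound ("at least") replaces each dim value that lies under its array's lowest detected signal by that signal before the group means are compared. The code was tested on simulated data.

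The HOX genes and the lists (TALE, Polycomb, Trithorax, retinoic acid, neighbours, noncoding RNAs, cell type markers) were chosen with earlier results of these data known. Named HOX genes were to be those that passed or were detected in only one group, and otherwise the 3 with the largest difference among those on all arrays. Up to 4 passing genes per list and direction were named. Of 16 noncoding RNAs listed, 2 were found by symbol. Same-numbered arrays deviated from their group means with correlations of 0.807, -0.716 and 0.691. Arrays numbered 1 shared a scan day, as did those numbered 3, and those numbered 2 did not. The correlations follow scan day, so they cannot tell whether the numbers pair the cultures. Some genes of the array are counted in the totals but not reported here by name or in the figures. Alternatives are in the closing section. Sequences are from the scanner files and RefSeq (GRCm38.p6), and were read with Python 3.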

Additional observations from a re-analysis of the deposited data

How the results depend on the processing

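The count of HOX genes that passed was 0 in 24 of 25 alternatives and 2, Hoxb4 and Hoxa3, in the day-adjusted fit without TGFb replicate 3 (range 0 to 2 when 1 array was left out). In that fit 3345 of all 21864 genes passed. Over all genes, 307 passed with group alone. The count was 2229 with scan day as a term, 791 with slide as a block and 3326 in the authors' deposited table. The labels state no pairing of same-numbered arrays. With the replicate as a block 2 genes passed in all and no HOX gene did. With untreated replicates 1 and 2 averaged, an alternative added after seeing the data, 0 of all genes passed with group alone (1460 at an unadjusted p of 0.05, limma) and 681 with scan day as a term. Leaving out 1 array gave 0 to 207 genes with group alone and 330 to 3345 with scan day as a term (662 and 1769 without TGFb replicates 1 and 2, 690 and 627 without untreated replicates 1 and 2), so the overall count rests on single arrays.

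The median HOX difference of 0.02 was -0.15 with scan day as a term, 0.22 with no filter on dim probes (39 genes, most of the added ones at background) and -0.14 with both the average and scan day. It ran from -0.17 (without TGFb replicate 2) to 0.055 when an array was left out with group alone, and from -0.13 to 0.04 with scan day. Of 621 values of single HOX genes over 24 settings, 75 had the other sign and 2 passed. The cause of these moves was not tested. The number of detected HOX genes was 20 to 27 after TGFb and 24 to 28 without, under 4 other detection rules. Signals near background limit Hoxb5, Hoxb8, Hoxb9, Hoxc8, Hoxc12 and every Hoxd gene. They also limit Hoxb6 (intensity 37.4) on TGFb array 2, and Hoxb7 (48.6) and Hoxa4 (65.8) on TGFb array 3. These intensities lay under the 99th percentile of the array's negative control spots (72.7 and 74.4).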
